A study of Arabidopsis thaliana with 15 samples.

Results

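LHY (AT1G01060), CCA1 (AT2G46830), RVE1 (AT5G17300), RVE2 (AT5G37260), RVE7 (AT1G18330), RVE4 (AT5G02840), RVE6 (AT5G52660) and RVE8 (AT3G09600) are the 8 genes described here, out of 27981 Arabidopsis loci measured. They were taken by locus, each read by the probe set of that locus with the highest mean over the 15 arrays. All 8 were measured and no filter on low values was applied. They encode related transcription factors with a MYB-like domain, and most of them are parts or outputs of the plant circadian clock.

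As background, LHY and CCA1 are morning genes whose proteins bind the evening element in promoters and repress evening genes, among them TOC1, GI, LUX and ELF4. PRR9, PRR7, PRR5 and TOC1 repress LHY and CCA1 in turn, which closes the loop. RVE8, RVE4 and RVE6 bind the same element but activate evening genes together with the coactivators LNK1 and LNK2. RVE1 links the clock to auxin synthesis, and in seeds RVE1 and RVE2 promote dormancy, RVE1 through repression of the gibberellin synthesis gene GA3OX2. RVE7, listed as EPR1 in the reference table, was described as a gene induced through phytochromes.

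The study followed germinated Col-0 seeds, at the moment the radicle protrudes, while they were kept in the hormone abscisic acid (ABA), which can give such seeds back their tolerance to drying. All seeds were stratified for 72 h at 4 °C and germinated at 22 °C in constant white light, and were then incubated in 10 µM ABA in the dark at 20 °C for 0 h, 2 h, 12 h, 24 h or 72 h. Each time had 3 Affymetrix arrays, 1 for each replicate, which was a pool of seeds bulked from at least a pair of plants. Germinated seeds incubated without ABA were not analysed here and the hour of day of each harvest is not given in the sources used here, so ABA, darkness, the change of temperature and elapsed time cannot be told apart.

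The values are log2 expression after robust multi-array averaging (RMA), a normalization that gives all arrays a common scale, and they ran between 1.49 and 12.8. They were compared per gene and not between genes, since probe sets differ in brightness. A gene is called changed where limma's moderated test gave an adjusted p under 0.05, with the adjustment over all 27981 loci. The number of arrays limits the precision of every value. Whole germinated seeds were used, so fewer cells of a type and less RNA per cell cannot be told apart.

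The 2 h replicate 2 array stood apart from the rest. It correlated at 0.889 and 0.901 with the other 2 h arrays, whereas replicates elsewhere correlated at 0.986 to 0.995. The middle spread of its values (interquartile range) was 2.89, against 3.73 to 4.12 on the other 14 arrays. On it, 29.5% of loci lay at least 1 log2 unit from the mean of the other 2 h arrays, so the differences of single genes named at 2 h against 0 h are given with and without it. Leaving it out also raised the calls over all loci, to 19.1% at 2 h, 40.6% at 12 h, 49.1% at 24 h and 51.2% at 72 h against 0 h. The 24 h replicate 1 array correlated with its replicates over all loci at 0.989 to 0.992, but differed from them at several clock genes, as given below. When every array was shifted to a common median, the median over all loci changed by 0.118 at 2 h against 0 h and by -0.167 at 12 h against 2 h, which changed no direction of a called clock MYB gene. Of 3 genes of photosynthesis that mark green tissue, RBCS1A lay between percentiles 97.8 and 98.5 of loci, RBCS3B was at percentile 80.6 at 0 h and at 45 at 72 h, and LHCB1.1 lay between percentiles 5.45 and 22.6. The 7 storage and oil body genes lay between percentiles 38.8 and 72.4 at 0 h and between 49.1 and 99.9 at 24 h. Markers of flowers (AP1, AP3, PI and AG) lay at or below the 43rd percentile of loci at every time, and RD29B, a gene switched on by ABA, was at percentile 98.6 of loci at 2 h and at percentile 22.8 at 0 h.

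The 8 genes did not move as one group. LHY, CCA1 and RVE1 fell to lower levels at 12 h, 24 h and 72 h than at 0 h. RVE2 and RVE7 each moved in both directions along the series, and RVE7 had the widest range of the 8, with 4.58 log2 units between its highest and its lowest time mean. RVE4 rose at 24 h and 72 h, RVE6 was slightly higher throughout, and no change was called for RVE8.

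**Figure D1:**
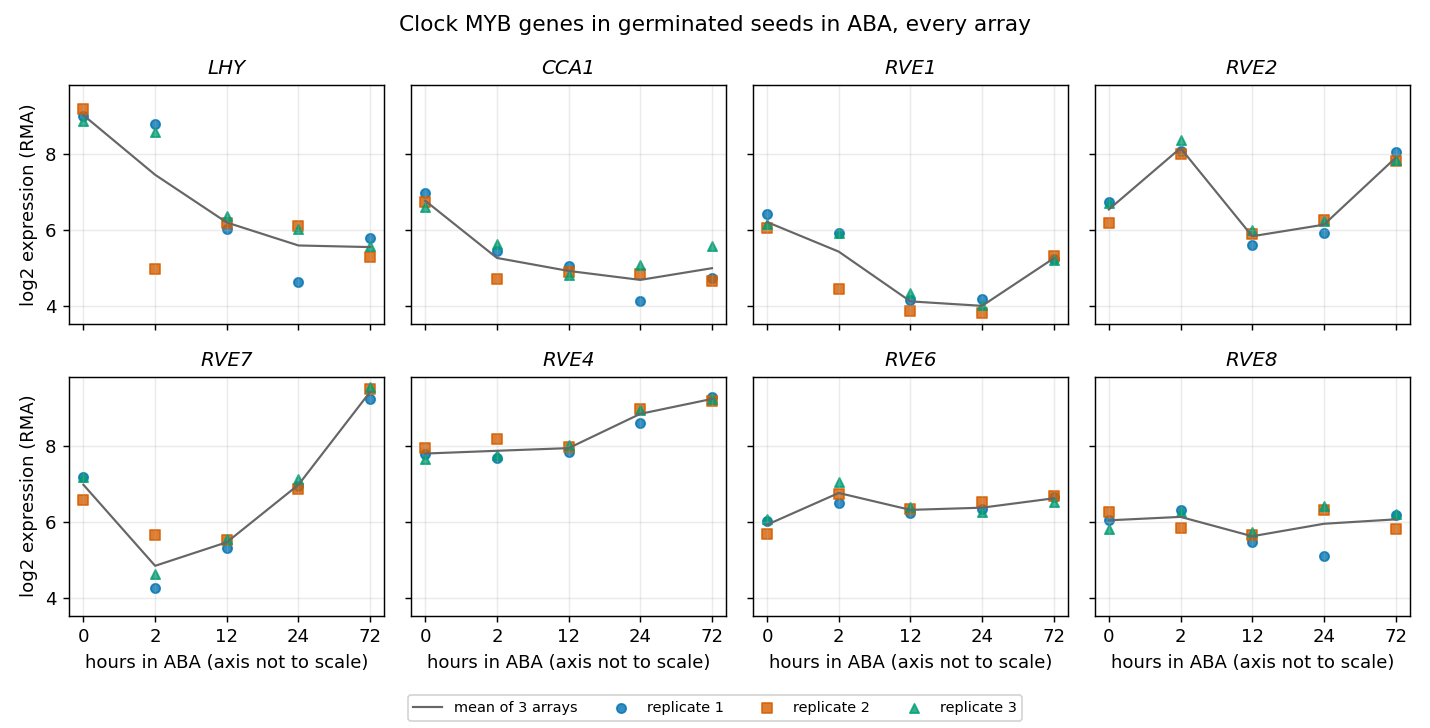
Log2 expression (RMA) of the 8 clock MYB genes on every array, by hours in ABA; the time axis is not to scale. Points are the 3 replicate arrays of a time, with a symbol for each replicate, and lines join the means. LHY and CCA1 are highest at 0 h, RVE2 is high at 2 h and 72 h, RVE7 is lowest at 2 h and highest at 72 h, and single points far from their replicates are seen for LHY at 2 h and at 24 h.

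LHY had 9.00, 9.19 and 8.88 at 0 h, and 8.79, 4.98 and 8.59 at 2 h, in the order of replicates 1, 2 and 3. It had 6.04, 6.18 and 6.37 at 12 h, then 4.65, 6.11 and 6.04 at 24 h, and 5.78, 5.30 and 5.58 at 72 h. Every array from 12 h on thus lay below every 0 h array, and at 2 h only the replicate 2 array was low. LHY averaged 6.20 ± 0.17 at 12 h and 9.02 ± 0.16 at 0 h (SD, n = 3 each), a fall of 2.82 ± 0.73 log2 units (SE; adjusted p = 0.0106). The fall was 3.43 log2 units at 24 h (adjusted p = 0.00188) and 3.47 at 72 h (adjusted p = 0.00156), which is an 11.1-fold lower level at 72 h. At 2 h the difference from 0 h was -1.57 (adjusted p = 0.163).

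The value of LHY at 2 h depended on 1 array. Without 2 h replicate 2 its difference from 0 h was -0.33 ± 0.32 (adjusted p = 0.583), and its fall between 2 h and 12 h became a called one, at -2.49 log2 units (adjusted p = 0.000149), against -1.26 with that array (adjusted p = 0.249). Without 2 h replicate 1, on the other hand, the difference at 2 h was -2.24 (adjusted p = 0.0414). On the 24 h replicate 1 array LHY was 1.43 below the mean of its replicates, a larger gap than 99.9% of loci had on that array. Without it the fall at 24 h was 2.95 log2 units (adjusted p = 0.0118). The time means of LHY ran downwards in the order 0 h, 2 h, 12 h, 24 h and 72 h, but of the neighbours in that order none differed by a called amount with all arrays kept.

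CCA1, the closest relative of LHY, had 6.97, 6.74 and 6.60 at 0 h, 5.44, 4.72 and 5.64 at 2 h, and 5.06, 4.89 and 4.83 at 12 h. It had 4.14, 4.85 and 5.08 at 24 h and 4.74, 4.66 and 5.59 at 72 h. All 12 later arrays lay below the 3 arrays of 0 h, and the arrays from 2 h on overlapped between most times. CCA1 averaged 5.27 ± 0.48 at 2 h and 6.77 ± 0.19 at 0 h (SD, n = 3 each), a fall of 1.50 ± 0.29 log2 units (adjusted p = 0.00265), and without 2 h replicate 2 the fall was 1.23 (adjusted p = 0.0046). Against 0 h it fell by 1.85 at 12 h (adjusted p = 0.000339), by 2.08 at 24 h (adjusted p = 7.14e-05) and by 1.77 at 72 h (adjusted p = 0.00024). None of the steps between later neighbouring times was called, and its time means ran downwards in the order 0 h, 2 h, 72 h, 12 h and 24 h. CCA1 was thus called lower at a time when LHY was not, and the difference between both falls at 2 h was not tested.

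RVE1, which keeps seeds dormant and holds back light-induced germination, had 6.43, 6.05 and 6.15 at 0 h and 5.92, 4.45 and 5.93 at 2 h. Its levels were 4.16, 3.87 and 4.34 at 12 h, 4.19, 3.81 and 4.03 at 24 h, and 5.23, 5.33 and 5.22 at 72 h. The 12 h and 24 h arrays were all below the other times, and the 72 h arrays came back to a level between them and 0 h. RVE1 averaged 4.13 ± 0.24 at 12 h and 6.21 ± 0.20 at 0 h (SD, n = 3 each), a fall of 2.09 ± 0.31 log2 units (adjusted p = 0.000169). The fall was 2.20 at 24 h (adjusted p = 6.15e-05) and 0.95 at 72 h (adjusted p = 0.0228). The difference at 2 h was -0.78 (adjusted p = 0.105), and -0.29 without 2 h replicate 2 (adjusted p = 0.25).

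Its fall between 2 h and 12 h was 1.31 log2 units (adjusted p = 0.0273), with an adjusted p of 0.0557 without 2 h replicate 1 and of 0.07 to 0.093 without each of the 12 h arrays. Between 24 h and 72 h the level of RVE1 rose by 1.25 log2 units (adjusted p = 0.0389), but that call was lost when 12 of the 15 arrays were left out 1 at a time. The rise of 1.13 between 12 h and 72 h had an adjusted p of 0.0171, where 20% of all loci were called. That comparison was added after seeing the data. The fall at 72 h against 0 h had an adjusted p of 0.0851 without 0 h replicate 1, of 0.0609 without 72 h replicate 1 and of 0.0618 without 72 h replicate 3, so it was no longer called in these fits. The difference at 2 h against 0 h passed the threshold when 2 h replicate 1 (adjusted p = 0.0331) or its replicate 3 (adjusted p = 0.0351) was left out. The falls at 12 h and 24 h kept their calls whichever array was left out. In the order of its time means (0 h, 2 h, 72 h, 12 h and 24 h), neither 72 h and 2 h (-0.18, adjusted p = 0.664) nor 24 h and 12 h (-0.12, adjusted p = 0.909) differed by a called amount.

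RVE2, whose overexpression is known to disturb the clock and to promote seed dormancy, had 6.73, 6.19 and 6.71 at 0 h and 8.08, 8.01 and 8.38 at 2 h. Its levels were 5.62, 5.89 and 6.00 at 12 h, 5.92, 6.26 and 6.25 at 24 h, and 8.05, 7.81 and 7.84 at 72 h. The 2 h and 72 h arrays made a high set, with no overlap with the other 3 times. RVE2 averaged 8.16 ± 0.20 at 2 h and 6.54 ± 0.30 at 0 h (SD, n = 3 each), a rise of 1.61 ± 0.18 log2 units or 3.06-fold (adjusted p = 2.11e-05). At 12 h it was 0.70 below 0 h (adjusted p = 0.00934), a call lost without 12 h replicate 1 (adjusted p = 0.0506), and the fall from the 2 h level was 2.32 (adjusted p = 0.000109).

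At 72 h RVE2 was again higher than at 0 h, by 1.36 log2 units (adjusted p = 3.42e-05), after a rise of 1.76 over the level at 24 h (adjusted p = 0.000106). Its level at 24 h was 0.40 below 0 h, which missed the threshold (adjusted p = 0.0991), and was called without 0 h replicate 2 (adjusted p = 0.0251). The order of its time means was 2 h, 72 h, 0 h, 24 h and 12 h, with no called difference between 72 h and 2 h (-0.26, adjusted p = 0.278) or between 24 h and 12 h (0.30, adjusted p = 0.404). The rise at 2 h was 1.69 without 2 h replicate 2 (adjusted p = 7.74e-06).

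RVE7 had 7.18, 6.56 and 7.17 at 0 h and 4.26, 5.64 and 4.62 at 2 h. It had 5.32, 5.51 and 5.55 at 12 h, 6.93, 6.86 and 7.13 at 24 h, and 9.23, 9.49 and 9.53 at 72 h. The 2 h and 12 h arrays were below those of 0 h, the 24 h arrays overlapped with them, and the 72 h arrays were the highest of all. RVE7 averaged 4.84 ± 0.72 at 2 h and 6.97 ± 0.36 at 0 h (SD, n = 3 each), a fall of 2.13 ± 0.28 log2 units (adjusted p = 1e-04), and the fall was 2.53 without 2 h replicate 2 (adjusted p = 1.62e-07). It was 1.51 below 0 h at 12 h (adjusted p = 0.00106), level with 0 h at 24 h (0.00 ± 0.28) and 2.45 above 0 h at 72 h (adjusted p = 9.73e-06), a 5.44-fold higher level.

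From 12 h on, each step of RVE7 was a called rise. It rose by 1.51 log2 units between 12 h and 24 h (adjusted p = 0.00639) and by 2.44 between 24 h and 72 h (adjusted p = 0.000239). The step of 0.62 between 2 h and 12 h had an adjusted p of 0.169 with all arrays and was 1.02 without 2 h replicate 2 (adjusted p = 0.00192). At 72 h, the time of its highest mean, its level was 4.58 log2 units above that at 2 h, the time of its lowest mean, or 23.8-fold. That comparison, which called 28.7% of all loci, was added after seeing the data, so the difference is given as a description.

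RVE4, an activator of evening genes, had 7.79, 7.95 and 7.64 at 0 h, 7.68, 8.17 and 7.74 at 2 h, and 7.83, 7.96 and 8.01 at 12 h. It had 8.59, 8.97 and 8.95 at 24 h and 9.27, 9.17 and 9.24 at 72 h. The first 3 times overlapped and both later times lay above all of them. RVE4 averaged 8.84 ± 0.21 at 24 h and 7.79 ± 0.16 at 0 h (SD, n = 3 each), a rise of 1.04 ± 0.16 log2 units (adjusted p = 0.000119). At 72 h the rise was 1.44 (adjusted p = 6.41e-06), and the step of 0.90 between 12 h and 24 h was called (adjusted p = 0.0043). The further step of 0.39 between 24 h and 72 h was not called (adjusted p = 0.249), and was called without 2 h replicate 2 (adjusted p = 0.0417). The differences of 0.07 at 2 h and 0.14 at 12 h from 0 h did not pass the test (adjusted p = 0.742 and 0.611), and the one at 2 h was -0.08 without 2 h replicate 2 (adjusted p = 0.778).

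RVE6, which acts beside RVE8 and RVE4, had 6.03, 5.67 and 6.06 at 0 h and 6.49, 6.73 and 7.04 at 2 h. It had 6.22, 6.33 and 6.38 at 12 h, 6.33, 6.52 and 6.25 at 24 h, and 6.64, 6.69 and 6.52 at 72 h. All 12 later arrays lay above the 0 h arrays, by a small margin at 12 h and 24 h. RVE6 averaged 6.76 ± 0.28 at 2 h and 5.92 ± 0.22 at 0 h (SD, n = 3 each), a rise of 0.83 ± 0.16 log2 units (adjusted p = 0.00215), and the rise was 0.85 without 2 h replicate 2 (adjusted p = 0.00156). It was 0.39 above 0 h at 12 h (adjusted p = 0.0913), 0.45 at 24 h (adjusted p = 0.0385) and 0.69 at 72 h (adjusted p = 0.00277). The call at 24 h was lost on leaving out any of 9 of the 15 arrays, with an adjusted p of up to 0.182, and the value at 12 h was called without 2 h replicate 2 (adjusted p = 0.0436). Its time means ran downwards in the order 2 h, 72 h, 24 h, 12 h and 0 h, with no called difference between any neighbours in it.

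RVE8, the best studied activator of evening genes among the 8, had 6.05, 6.25 and 5.80 at 0 h, 6.30, 5.83 and 6.25 at 2 h, and 5.46, 5.66 and 5.73 at 12 h. It had 5.11, 6.31 and 6.42 at 24 h and 6.18, 5.80 and 6.20 at 72 h. The 12 h arrays lay below those of 0 h, and the other times overlapped with 0 h. Its differences from 0 h were 0.09 at 2 h, -0.42 at 12 h, -0.09 at 24 h and 0.03 at 72 h, each with a standard error of 0.28, and the lowest adjusted p among them was 0.343. The value at 2 h was 0.24 without 2 h replicate 2 (adjusted p = 0.678). On the 24 h replicate 1 array RVE8 was 1.26 below the mean of its replicates. Without that array its difference from 0 h at 24 h was 0.33 (adjusted p = 0.25), and the rise of 0.75 between 12 h and 24 h was called (adjusted p = 0.0476).

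Over the 5 times together, an F test of the same fit called 7 of the 8 genes, all but RVE8 (adjusted p = 0.499), where 44% of all loci were called. At 2 h, 4 of the 8 were called against 0 h, where 15.8% of all loci were. RVE2 and RVE6 rose, as did 6.95% of all loci, and CCA1 and RVE7 fell, as did 8.89%. At 12 h, 5 of the 8 were called, with a background of 25%, and all 5 (LHY, CCA1, RVE1, RVE2 and RVE7) fell, as did 11.7% of all loci, while 13.3% of all loci rose. No rise was called at 12 h by limma, and 1 rise, that of RVE6, had an unadjusted p under 0.05. At 24 h, 5 were called with a background of 36.6%, 3 falls (LHY, CCA1 and RVE1, with 19.1% of all loci) and 2 rises (RVE4 and RVE6, with 17.4%). At 72 h, 7 were called with a background of 38.5%, 3 falls (LHY, CCA1 and RVE1, with 20.2% of all loci) and 4 rises (RVE2, RVE7, RVE4 and RVE6, with 18.4%).

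The median difference of the 8 genes from 0 h was -0.35 log2 units at 2 h, -1.11 at 12 h, -0.25 at 24 h and 0.36 at 72 h, and the median of all loci was 0.11, -0.04, 0.00 and -0.02 at these times. The arrays of the later time did not overlap with those of 0 h for 6 genes at 2 h, 7 at 12 h, 5 at 24 h and 7 at 72 h, and for 28.6%, 51.4%, 56.2% and 58.1% of all loci at these times. Between neighbouring times, 2 of the 8 were called at 12 h against 2 h, where 4.89% of all loci were called, and both fell (RVE1 and RVE2, with 1.62% of all loci). Without 2 h replicate 2 this count was 4, where 15.3% of all loci were called, and in a fit of the 6 arrays of these times alone it was 0, with 3 at an unadjusted p under 0.05. At 24 h against 12 h, 2 were called with a background of 6.56%, both of them rises (RVE4 and RVE7, with 2.75% of all loci). Without 2 h replicate 2 both kept their calls, but 21.3% of all loci were then called in that comparison and 8.97% rose. At 72 h against 24 h, 3 were called with a background of 3.32%, all of them rises (RVE1, RVE2 and RVE7, with 1.93% of all loci). Without 2 h replicate 2 RVE4 was called too, and 12.8% of all loci were called and 6.47% rose.

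**Figure D2:**
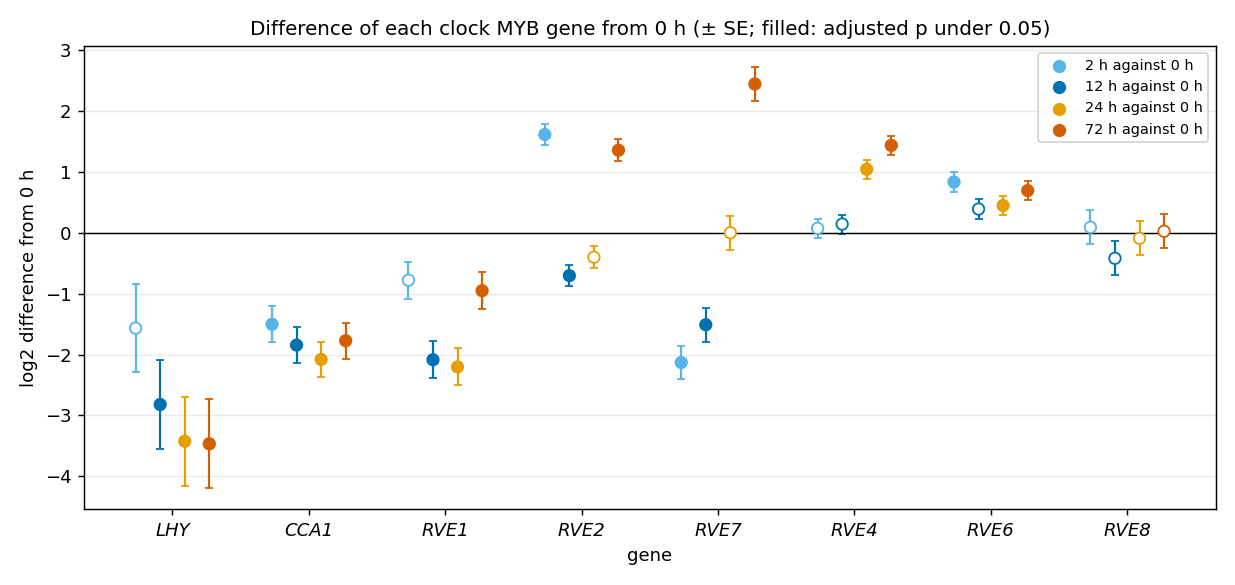
Difference of each of the 8 clock MYB genes from 0 h in log2 units, for 2 h, 12 h, 24 h and 72 h in ABA. Bars are the standard error of the fit and filled points have an adjusted p under 0.05. LHY, CCA1 and RVE1 stay below 0 at every time, RVE6 stays above 0, and RVE2 and RVE7 cross it.

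**Figure D3:**
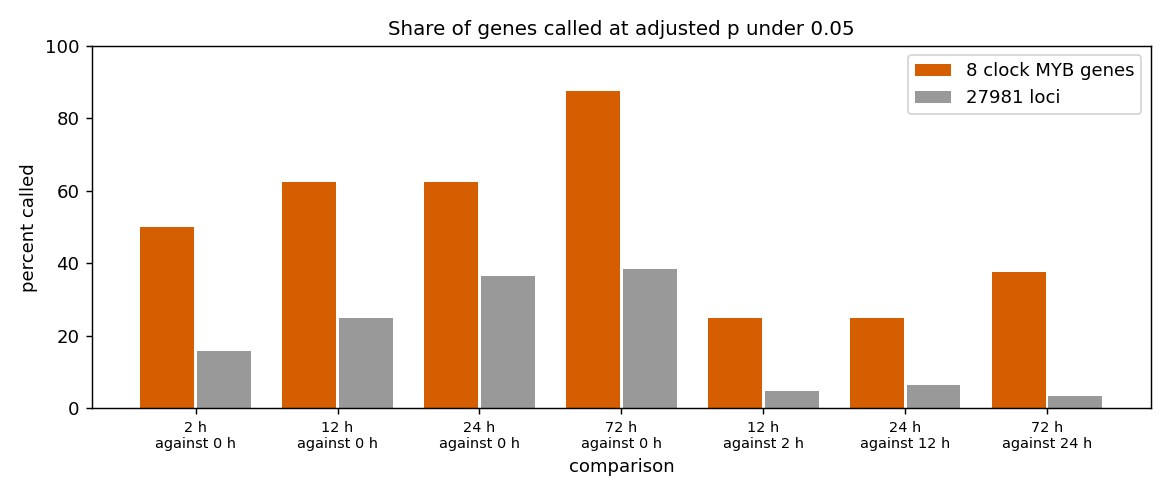
Percent of the 8 clock MYB genes, and of all 27981 loci, called at an adjusted p under 0.05 in each of 7 comparisons of times. The share of the 8 genes is between 25% and 87.5%, and the share of all loci is between 3.32% and 38.5%. Without 2 h replicate 2, which is kept here, the share of all loci was between 12.8% and 51.2%.

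Several clock genes that LHY and CCA1 are known to repress were called higher at 72 h than at 0 h, among them PRR9, PRR7, PRR5, TOC1, GI, LUX and ELF4. Whether these rises are linked to the falls of LHY and CCA1 was not tested. The list of PRR repressors and TOC1 had 5 members, and all 5 rose at 72 h against 0 h, where 18.4% of all loci rose and 20.2% fell. At 2 h, 12 h and 24 h, 6.95%, 13.3% and 17.4% of all loci rose, and 8.89%, 11.7% and 19.1% fell. These shares are the background of every list count below with all arrays kept. PRR9, the earliest of the daily PRR wave, was 4.02 ± 0.45 log2 units higher (adjusted p = 8.34e-06), PRR7 was 2.13 ± 0.41 higher, PRR5 was 3.94 ± 0.28 higher (adjusted p = 1.17e-07) and TOC1, the evening repressor of CCA1 and LHY, was 2.26 ± 0.15 higher (adjusted p = 6.65e-08). At 24 h all 5 were called as rises as well, and the rise of PRR9 by 1.49 at that time had an adjusted p of 0.098 without 0 h replicate 2 and of 0.0894 without 24 h replicate 3. At 12 h 3 of the 5 rose, among them PRR5 by 1.14 and TOC1 by 0.45 (adjusted p = 0.0406), of which the call of TOC1 was lost on leaving out any of 10 of the 15 arrays. At 2 h none was called by limma and 1 had an unadjusted p under 0.05, while without 2 h replicate 2 PRR9 was 1.74 lower than at 0 h (adjusted p = 0.00443) and PRR7 was 1.50 lower (adjusted p = 0.000359). The median of the list was -0.25, 0.91, 1.68 and 2.26 at 2 h, 12 h, 24 h and 72 h.

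GI, which steadies the F-box proteins of the ZTL family, was 3.22 ± 0.40 log2 units higher at 72 h than at 0 h (adjusted p = 2.11e-05), and FKF1, a blue light receptor of that family, was 3.57 ± 0.35 higher. All 4 genes of the GI and ZTL list rose at 72 h, including LKP2 by 0.87 and ZTL by 0.64 (adjusted p = 0.0118), and the rise of ZTL lost its call without 0 h replicate 3 (adjusted p = 0.0522). At 2 h none of the 4 was called by limma, 2 had an unadjusted p under 0.05, and without 2 h replicate 2 GI was 1.65 below 0 h (adjusted p = 2.06e-06). Counts at 12 h and 24 h were 2 and 3 rises, with GI 1.22 higher at 12 h (adjusted p = 0.0381, a call lost on leaving out any of 12 of the 15 arrays) and 2.00 higher at 24 h.

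The evening complex holds back growth and PRR9 at night, and all 4 genes of that list (LUX, ELF3, ELF4 and BOA) were called as rises at 72 h. ELF4 was 1.54 ± 0.33 log2 units higher than at 0 h (adjusted p = 0.00159), BOA was 3.0 ± 0.17 higher, LUX was 1.65 ± 0.49 higher (adjusted p = 0.0146) and ELF3 was 0.80 higher (adjusted p = 0.0173, or 0.0524 to 0.055 on leaving out 0 h replicate 2, 0 h replicate 3 or 72 h replicate 3). Without 0 h replicate 2, 2 of these 4 were called, with LUX at an adjusted p of 0.0658. BOA was also the only gene of the list called at 2 h, 12 h and 24 h with all arrays kept. When 2 h replicate 2 was left out, LUX was 1.94 lower at 2 h than at 0 h (adjusted p = 2.55e-05) and ELF4 was 1.21 lower (adjusted p = 0.00286). In that fit the list had 2 rises and 2 falls at 12 h, where 20.7% of all loci rose and 19.9% fell. The falls at 12 h were ELF4 by 0.88 (adjusted p = 0.00547) and ELF3 by 0.24 (adjusted p = 0.0456). LUX was 0.59 higher at 12 h (adjusted p = 0.0348) and 1.14 higher at 24 h (adjusted p = 3e-04).

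The LNK coactivators, partners of RVE8 and RVE4, did not all move alike. LNK3 was 2.21 ± 0.22 log2 units higher at 2 h than at 0 h and 2.98 higher at 72 h, and LNK4 was 1.36 ± 0.17 higher at 2 h and 2.46 higher at 72 h; both were called at every time. Without 2 h replicate 2 the rises at 2 h were 2.04 for LNK3 and 1.25 for LNK4. LNK1 was 1.22 ± 0.37 lower at 2 h (adjusted p = 0.0398, a call lost in 14 of the 15 fits that left out an array) and 1.38 higher at 72 h (adjusted p = 0.00874). The fall of LNK1 at 2 h was 1.77 without 2 h replicate 2 (adjusted p = 0.000102). LNK2 fell by 1.52 ± 0.39 at 2 h (adjusted p = 0.0152), lost that call without 0 h replicate 1 (adjusted p = 0.0671), fell by 0.997 without 2 h replicate 2 (adjusted p = 0.0239), and differed from 0 h by 0.13 at 72 h.

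**Figure D4:**
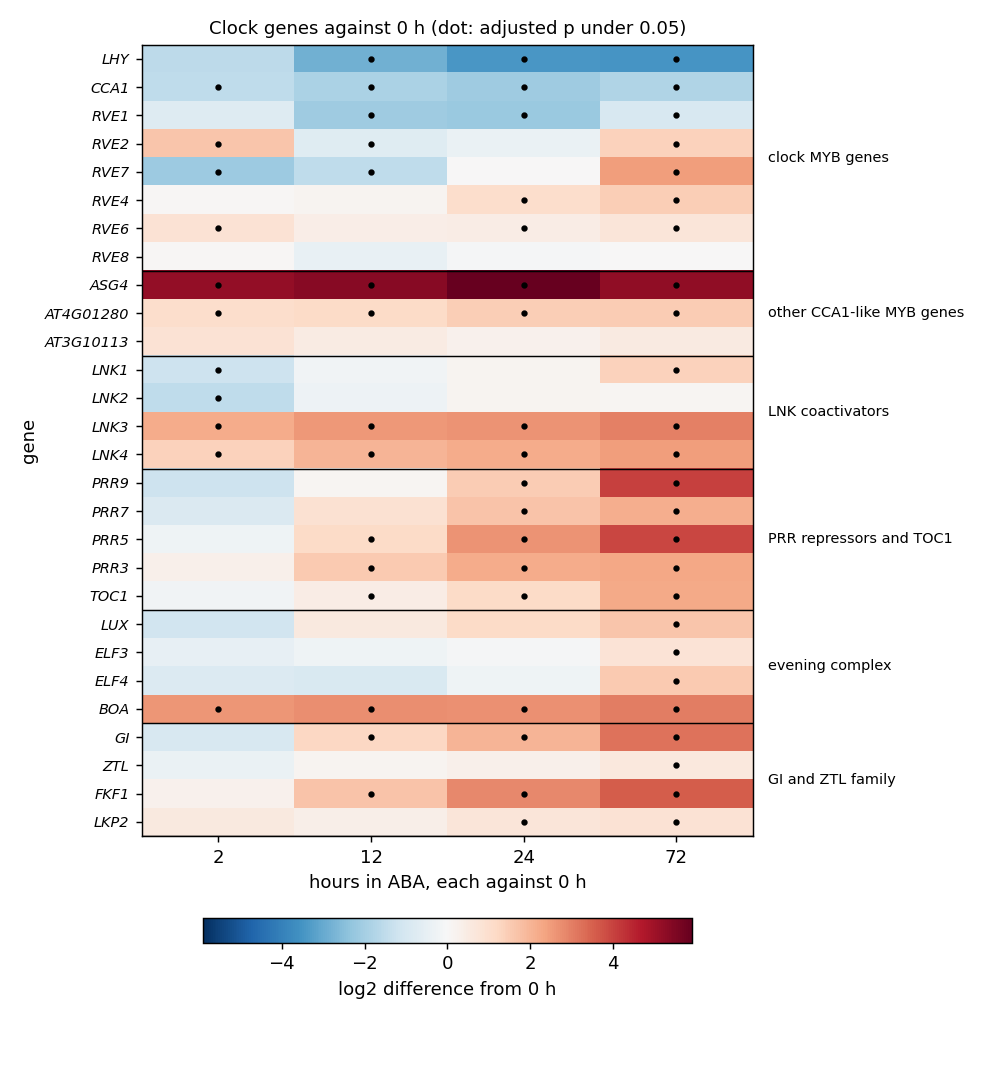
Log2 difference from 0 h of the clock MYB genes and of 5 lists of their partners and relatives, at 2 h, 12 h, 24 h and 72 h in ABA. Colour gives the difference (red higher, blue lower than at 0 h) and a dot marks an adjusted p under 0.05. The upper rows, LHY, CCA1 and RVE1, are blue from 12 h on, and the PRR and TOC1 rows turn red towards 72 h.

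At 72 h against 0 h the median difference was 2.04 in the GI and ZTL list, 1.59 in the evening complex list and 1.92 in the LNK list, where the median of all loci was -0.02. Of 3 further CCA1-like MYB genes outside the 8, ASG4 and AT4G01280 rose at every time. ASG4 averaged 8.14 at 2 h and 2.97 at 0 h, a difference of 5.18 ± 0.27 log2 units, or 5.57 without 2 h replicate 2, and the difference was 5.24 at 72 h. At 0 h ASG4 was at percentile 18.9 of loci, and at 2 h it was at percentile 89.2. No background measure was analysed here, so whether it was detected at 0 h is unknown, as it is for FKF1, at percentile 20.7 at 0 h. AT4G01280 was 1.03 ± 0.25 higher at 2 h (1.38 without 2 h replicate 2) and 1.48 higher at 72 h, and AT3G10113 was not called at any time. Of the 8 subunits of casein kinase 2, which phosphorylates CCA1, 5 rose at 72 h, where 18.4% of all loci rose. Among them were CKA2 by 1.41, CKB3 by 1.36, CKA1 by 1.31 and CKB4 by 1.03, and the median of that list was 0.91. CKB2 was 0.33 lower (adjusted p = 0.041), and that call was lost on leaving out any of 10 of the 15 arrays. Of the 5 TOPLESS corepressors, which PRR proteins recruit, TPR1 was called at 72 h, at 0.47 above 0 h (adjusted p = 0.00396), and without 2 h replicate 2 a further one was.

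The 3 reported targets of RVE1 were all called lower at 12 h than at 0 h, as RVE1 was, with a median of -1.70, where 11.7% of all loci fell. At 72 h 1 of them was called higher, where 18.4% of all loci rose. A link between these changes and RVE1 was not tested. GA3OX2, which makes active gibberellin and is repressed by RVE1 in seeds, was 1.71 ± 0.29 log2 units lower at 12 h than at 0 h and 2.95 lower at 24 h, the times at which RVE1 was lowest too. PORA, which encodes a light-dependent enzyme of chlorophyll synthesis that builds up in the dark and whose expression RVE1 promotes, was 1.70 ± 0.38 lower at 12 h (adjusted p = 0.00462) and 1.12 higher at 72 h (adjusted p = 0.0316), with an adjusted p of 0.0706 to 0.106 on leaving out 0 h replicate 1 or 2 or 72 h replicate 2 or 3. YUC8, an auxin synthesis gene, was 1.06 ± 0.31 lower at 12 h (adjusted p = 0.0198), with an adjusted p of 0.064 to 0.0966 on leaving out 0 h replicate 2 or 12 h replicate 1 or 3.

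Of 14 genes of light input, with a median difference of 0.30 at 72 h, 3 fell at 2 h, 3 fell at 12 h, 4 rose and 3 fell at 24 h, and 5 rose at 72 h, all against 0 h. With all arrays kept, 8.89% of all loci fell at 2 h, 11.7% fell at 12 h, 17.4% rose and 19.1% fell at 24 h, and 18.4% rose at 72 h. Without 2 h replicate 2, 3 fell and 1 rose at 2 h, where 10.5% of all loci fell and 8.65% rose. In that fit 6 rose and 5 fell at 24 h, where 23.5% of all loci rose and 25.6% fell. At 72 h no fall was called by limma and none had an unadjusted p under 0.05. Without 2 h replicate 2 the counts were 3 rises and 5 falls at 12 h, where 20.7% of all loci rose and 19.9% fell, and 7 rises and 2 falls at 72 h, where 24.6% rose and 26.6% fell, and without 72 h replicate 3 there were 3 rises at 72 h. HYH, a close relative of HY5, fell by 4.40 ± 0.66 log2 units at 12 h and by 4.66 at 24 h, and was 1.16 below 0 h at 72 h (adjusted p = 0.198). Without 2 h replicate 2 that difference at 72 h was called (adjusted p = 1.14e-05), and the 2 falls at 72 h in that fit were CRY1 and HYH. HY5, the partner of HYH in light-driven growth control, fell by 2.15 ± 0.28 at 12 h and rose by 1.70 at 72 h (adjusted p = 0.000195). SPA1, a partner of the COP1 ubiquitin ligase that works in the dark, fell by 1.47 at 12 h and by 1.45 at 24 h. The lowest time mean of HY5 was at 12 h and that of HYH at 24 h, which was also the time of the lowest means of CCA1 and RVE1.

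Of 16 genes of clock output, 1 rose and 2 fell at 2 h, 2 rose and 3 fell at 12 h, and 6 rose and 1 fell at 24 h. Of all loci, 6.95%, 13.3% and 17.4% rose at these times, and 8.89%, 11.7% and 19.1% fell. At 72 h, where the median difference of the 16 was 1.03, 9 rose and none fell by limma, and 1 fall had an unadjusted p under 0.05. With all arrays kept, 18.4% of all loci rose at 72 h and 20.2% fell. Without 2 h replicate 2 there were 10 rises and 1 fall, where 24.6% of all loci rose and 26.6% fell. AT4G33980 was 4.73 ± 0.60 log2 units higher, PIF4, a growth factor gene under evening complex control, was 4.46 ± 0.27 higher and COR27, a cold and clock regulated gene, was 4.22 ± 0.46 higher than at 0 h. LHCB1.3, which encodes a light harvesting protein and peaks by day, fell by 1.65 ± 0.47 at 2 h (adjusted p = 0.0265) and by 2.74 at 12 h, and was 0.40 below 0 h at 72 h. The fall at 2 h was 0.88 without 2 h replicate 2 (adjusted p = 0.0105), and its adjusted p was 0.0611 to 0.0822 on leaving out any array of 0 h.

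On the 24 h replicate 1 array, 202 loci (0.722%) lay at least 1 log2 unit from the mean of their replicates, and 2 of the 8 clock MYB genes (LHY and RVE8) were among them. CCA1 was 0.82 below its replicates there, a larger gap than at 98.7% of loci. Among their partners, PRR9 was 0.97 below and ELF4 was 0.87 above the mean of their replicates on that array. No other array outside 2 h had any of the 8 genes at least 1 log2 unit from its replicates, and CCA1 was 0.89 above them on the 72 h replicate 3 array, a larger gap than at nearly all loci there (percentile 99.9).

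Likeness of patterns was described by Pearson's r over the 15 arrays, which share their times, so that r mostly follows the 5 time means. LHY and CCA1 had an r of 0.868, or 0.864 without 2 h replicate 2, and RVE1 followed LHY at 0.779 and CCA1 at 0.783. RVE4 and RVE7 had an r of 0.799, RVE2 and RVE6 had 0.679, and LHY and RVE4 ran opposite at -0.679. The locus most like LHY among all was AT3G05060 (0.975), followed by AT2G25870 (0.973) and SIG2 (0.970). CCA1 was most like FAD5 (0.957), RVE1 was most like TZP (0.974), RVE4 was most like NdhS (0.978) and RVE7 was most like RHA2A (0.967). For RVE2, RVE6 and RVE8 the highest values were lower, with AT1G52870 at 0.875, ZF2 at 0.898 and AT4G20340 at 0.818.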

How the data were processed

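RNA of 15 seed pools (5 times, 3 replicates each) was measured on Affymetrix arrays. The deposited values are log2 expression per probe set, made by the authors with RMA per the submitters' processing notes. For the RMA version, the array design and the genome build, nothing was stated in the sources used here. From 50 ng of total RNA, labelled cDNA was made with an amplification kit, per the labels' protocols. The values have no reads behind them, so precision comes from the replicates alone. The labels call the pools biological replicates.

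Of 35986 probe sets, the one with the highest mean was kept for each of 27981 loci; 5838 loci had several, and so had 6 of the 8 genes. None of the 8 genes shared all its values with a further locus. Names come from the reference table of TAIR10.1, which held 27241 of the loci, and RVE6 is named by its locus. limma 3.58.1 in R 4.3.3 fitted 1 mean per time over all 15 arrays, and p-values were adjusted by Benjamini-Hochberg over all loci. The fit was also run on simulated data that held no outlying array, so that run cannot show how 2 h replicate 2 affects the calls. The 8 genes and the 14 lists of other genes, all 90 of whose loci were measured, were chosen with earlier results of these data known. All 8 genes are named, and from each other list up to 4 called genes with the largest difference, with PRR9, PRR7, PRR5, TOC1, GI, LUX, ELF4, LNK1 and LNK2 always, and the 3 loci most like each gene. The comparisons of 24 h and 72 h with 2 h and of 72 h with 12 h were added after seeing the data. Alternatives were the probe set, the threshold, a filter on dim loci, centring, repeated quantile normalization, a variance trend, array weights, the replicate number as a term, a fit of the times compared alone, and leaving out each array.

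The lists not described above gave these counts. Of 7 seed storage and oil body genes 3 rose at 72 h, of 3 ABA response genes 3 rose at every time, of 3 photosynthesis genes 1 fell at 72 h, and of 4 floral genes 1 fell at every time. At 72 h 18.4% of all loci rose and 20.2% fell.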

Additional observations from a re-analysis of the deposited data

Results flagged for a closer look

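For each of 6 genes, limma called a rise at 1 time and a fall at another against the same 0 h arrays. The difference between those times follows from this choice and is given as a description, with its standard error and no test. RVE2 was 2.32 ± 0.18 log2 units lower at 12 h than at 2 h (12 h minus 2 h: -2.32). RVE7 was 4.58 ± 0.28 higher at 72 h than at 2 h. LNK1 was 2.60 ± 0.37 higher at 72 h than at 2 h. HY5 was 3.85 ± 0.28 higher at 72 h than at 12 h. PIF5, a growth factor gene of the clock output list named here for this reason alone, was 2.87 ± 0.37 higher at 72 h than at 2 h. Its fall at 2 h against 0 h (adjusted p = 0.0294) had an adjusted p of 0.0507 to 0.107 on leaving out any array of 0 h, 2 h replicate 1 or 2 h replicate 3. Without 2 h replicate 2 that fall was 1.92 (adjusted p = 4.1e-07). PORA was 2.82 ± 0.38 higher at 72 h than at 12 h. Groups of 3 arrays are too small for a test of single outlying arrays.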

How the results depend on the processing

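Of 71 counts of called clock MYB genes under another setting, 68 stayed within 1.5 times the reported count, and of 120 counts with an array left out, 116 did. The exceptions with all arrays kept all concern 12 h against 2 h (2 called): 1 at an adjusted p under 0.01, 4 with array quality weights, and 0 in the fit of those times alone, where no locus was called at all. The cause was not tested. Of other fits of the times compared alone, that of 12 h against 0 h called 11400 loci, where the full fit called 7006. That of 2 h against 0 h called 1276 loci, where the full fit called 4433. On leaving out each array in turn, the counts ranged between 4 and 6 at 2 h, 4 and 6 at 12 h, 4 and 5 at 24 h, and 6 and 7 at 72 h against 0 h, between 1 and 4 at 12 h against 2 h, 2 and 3 at 24 h against 12 h, and 2 and 4 at 72 h against 24 h, and the F test gave 7 each time. No called difference of a clock MYB gene changed its sign; some that were not called did, such as RVE8 at 24 h against 0 h, between -0.33 and 0.33 on leaving out an array. Of single differences, 484 of 504 under other settings kept their side of the threshold, as did 801 of 840 with an array left out and all 70 with another probe set of the same gene. These 70 include a probe set of RVE4 and the only other one of RVE6, whose values were identical to those used. RVE1 and RVE2 had no other probe set, so this check does not cover RVE1, RVE2 and RVE6. Of 30 pairs of arrays with the same replicate number, 11 deviated together at an r above 0.1 (median 0.0455). For pairs with different numbers the median was -0.0192. Of the 15 arrays, 8 had their highest mean r with arrays of their own number. These values cannot settle whether the numbers pair the samples. With a replicate block the counts did not change, except for 4 at 24 h against 0 h, where RVE6 had an adjusted p of 0.0516.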
